A study of Pinus pinaster with 30 samples.

Results

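Transcript levels of 7 spots tied to DNA methylation and to the supply of methyl groups were followed in developing zygotic embryos of maritime pine (*Pinus pinaster*). The spots were taken by name and array position from 26496 spots on the PtGen2 array, a collection of loblolly pine cDNAs. The choice was made with results of these data known, and the study lists DDM1, DMAP1, VIM1 and the glycosylase among transcripts that changed, so the counts of calls among the 7 are not independent of change. 3 of them were grouped under the upkeep of methylation: DDM1 (1.3.3.10, *A. thaliana* AT5G66750), DMAP1 (1.4.19.18, AT2G47210) and VIM1 (8.1.4.5, AT1G57820). DMAP1 was placed there by its name, and a role of this pine transcript in upkeep was not tested. 1 belongs to removal, a 5-methylcytosine DNA glycosylase (7.2.10.13). The remaining 3 are EMB1395, S-adenosylhomocysteine hydrolase (AT4G13940), which keeps the methyl supply going: 5.2.19.18, 4.4.11.13 and 5.4.22.13. The locus and the array positions do not tell whether these EMB1395 spots belong to the same pine unigene. The glycosylase has a name from a protein match but no *A. thaliana* locus in the tables read, and only 1 of the 2 unigenes tied to it carries that name. The VIM1 spot is also tied to 2 unigenes. A long cDNA can also bind transcripts of close relatives, so a ratio may mix members of a gene family.

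In plants the methylation of cytosines is copied to the new DNA strand after replication by methyltransferases. These enzymes need helper proteins to reach and recognise the site. The mark is taken away by DNA glycosylases, which cut out the methylated base so that repair can replace it. Each methylation step uses S-adenosylmethionine and leaves S-adenosylhomocysteine, which blocks methyltransferases until S-adenosylhomocysteine hydrolase breaks it down. The products then feed the renewal of methionine and S-adenosylmethionine, known as the methyl cycle.

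Embryos were harvested on 5 days: early embryos on Day0 (stages T0, T1 and T2), pre-cotyledonary embryos on Day5 (T3 and T4), early cotyledonary embryos on Day11 (T4B), cotyledonary embryos on Day15 (T5) and mature embryos on Day25 (T7). Every day has 3 biological samples, each a pool of 60 whole embryos from open-pollinated trees of a clonal orchard, and every sample was hybridized on 2 technical replicate arrays. No sample received a treatment. Embryo RNA, amplified in 2 rounds, carried Cy3 and a common reference made from RNA of all 15 samples carried Cy5. Each value is therefore the embryo signal over that of the pool on a log2 scale, which can be compared between days for 1 spot but not between spots, and with no dye swap a dye effect of a spot would be the same on all arrays. In RNA of whole embryos, fewer cells of a type and less RNA per cell cannot be told apart. Samples of a day may share trees and, in some cases, pooled extracts, so that p-values measure only the spread between these samples.

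The deposited quality marks call each spot kept or not, and 10860 to 18676 spots per array were kept. A test required kept values in at least 2 samples of every day, which 14513 spots had. Only 3 of the 7 spots did: DMAP1 (kept on 19 of 30 arrays), the glycosylase (28) and EMB1395 5.2.19.18 (28). DDM1 was kept on 13 arrays, VIM1 on 14, EMB1395 4.4.11.13 on 17 and EMB1395 5.4.22.13 on 16. For these 4 spots the values of all 30 arrays with no filter on the marks were used, and the tests on them come from a fit of all 26496 spots. The embryo signal was at least 13.3 times the local background on every array for all 7, and their highest embryo signal, 64470, lay under the highest on any spot. The reference signal came closer to its background, at no less than 4.0043 times for the 7. That lowest value belonged to DDM1, on an array of Day11 replicate 1 without both marks. Why the marks were withheld was not tested. Of 9 embryo marker spots (late embryogenesis abundant, legumin-type and embryo-abundant proteins), all had an embryo signal at least 4.32 times the background on every array. These markers themselves moved from Day0 to Day25 with no filter, 5 up and 3 down. The 3 late embryogenesis abundant spots rose (2.89- to 5.58-fold), the 3 legumin-type spots fell (6.44- to 9.96-fold, with log2 changes from -2.56 to -2.07 already by Day5), and 2 of 3 embryo-abundant spots rose. Their part in the changes of the 7 spots was not tested. The plot of the log2 ratios by sample shows kept values and all values side by side.

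**Figure D1:**
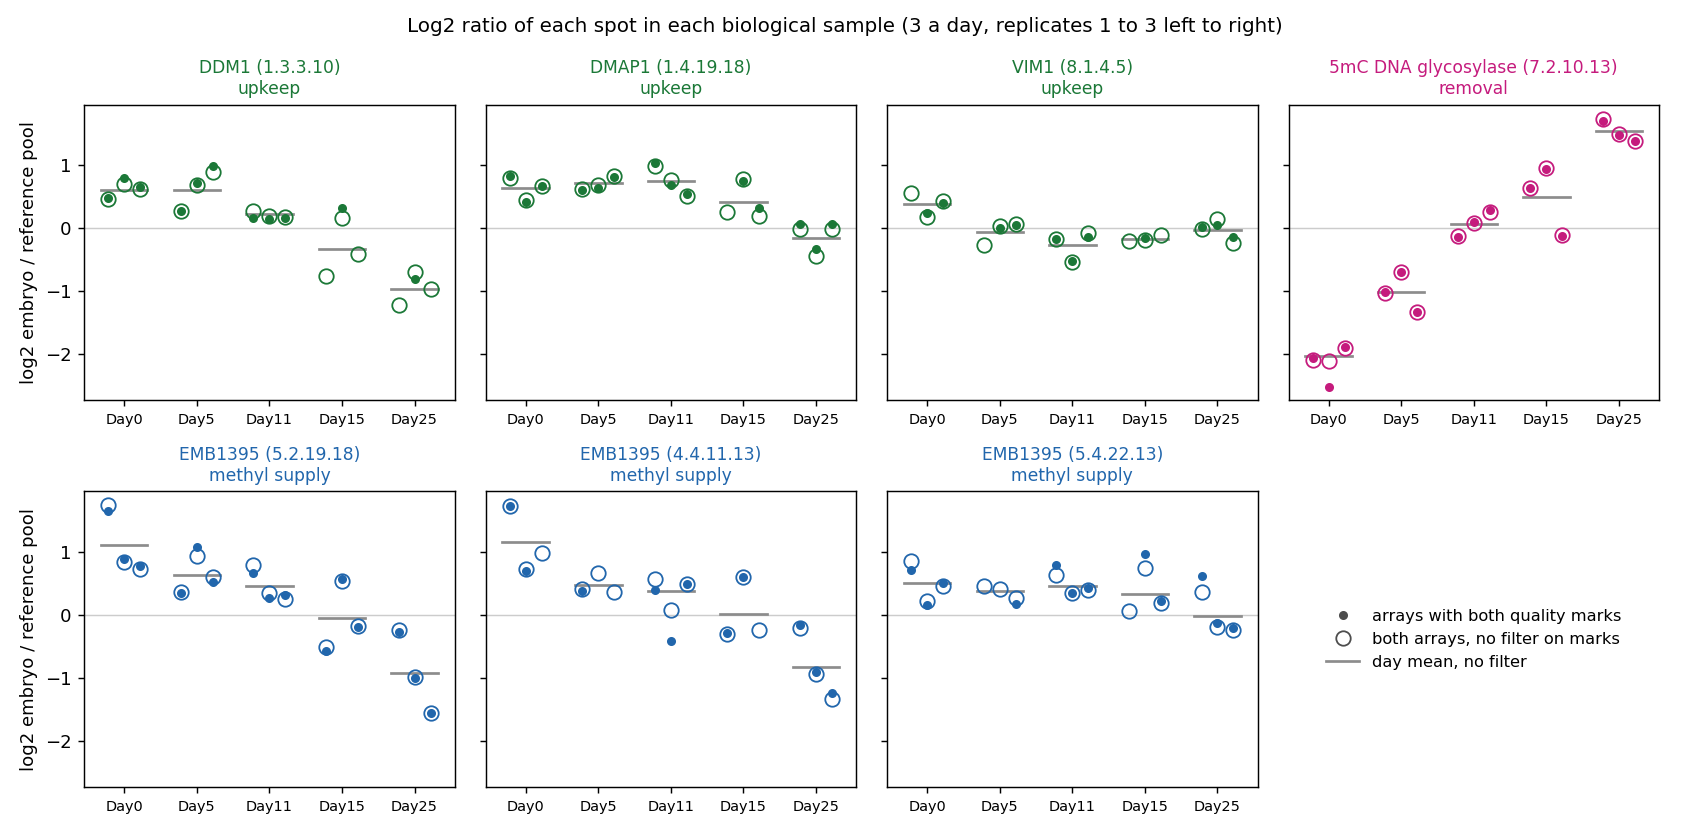
Log2 ratio of embryo over reference pool (y axis) for each of the 7 spots in the 3 biological samples of each day (x axis), with small filled points for arrays with both quality marks, large open points for both arrays with no filter, and grey lines for the unfiltered day means. The glycosylase climbs from a mean of -2.03 on Day0 to 1.53 on Day25, while DDM1, DMAP1 and EMB1395 spots 5.2.19.18 and 4.4.11.13 end below where they began.

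Between Day0 and Day25 the glycosylase rose 12.7-fold, and DMAP1 and EMB1395 5.2.19.18 fell, in the fit of kept values. All 3 of the spots with a filtered test were called, 1 up and 2 down, where 23.6% of the 14513 spots rose and 23.6% fell (47.2% in either direction). With no filter, 7 of 7 spots were called, 1 up and 6 down. In that fit 25.2% of all 26496 spots rose and 25.4% fell (50.7% in either direction), so that a change over the whole period was common on this array. The median log2 change of the 7 spots was -0.79, beside -0.024 for all spots of that fit. Calls are an adjusted p (limma, Benjamini-Hochberg over all spots of the fit) under 0.05. On the time course, a quadratic curve over days with a false discovery rate under 0.01 and an R-squared of at least 0.7, all 3 filtered spots were called, beside 28.0% of all spots. With no filter 5 of 7 were called (29.4% of all spots), the exceptions being VIM1 and EMB1395 5.4.22.13.

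DDM1 is a nucleosome remodeller that in *A. thaliana* lets methyltransferases reach DNA packed in heterochromatin. Its unfiltered log2 ratios on Day0 were 0.46, 0.70 and 0.62 in replicates 1 to 3, and on Day5 0.26, 0.68 and 0.88. They were 0.27, 0.20 and 0.18 on Day11, -0.76, 0.16 and -0.41 on Day15 and -1.21, -0.70 and -0.97 on Day25. The early days overlapped each other, and no Day25 value reached the lowest of Day0. Every unfiltered Day15 value lay below every Day11 value, but narrowly (highest 0.162 on Day15, lowest 0.178 on Day11). The arrays of that Day15 sample, replicate 2, gave 0.0080 and 0.32. DDM1 fell by 1.56 on the log2 scale from Day0 to Day25 (SE 0.21, a 2.94-fold change, adjusted p = 2.53e-05, limma). Its time course was called (R-squared 0.84, adjusted p = 9.61e-06, limma).

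No consecutive step of DDM1 passed the test. The log2 differences were 0.013 (SE 0.21) from Day0 to Day5, -0.39 from Day5 to Day11, -0.55 from Day11 to Day15 and -0.62 from Day15 to Day25, each with the same SE, and the last had an adjusted p of 0.071 (limma). Without replicate 1 of Day15, its lowest sample on that day, the last step was -0.84 (adjusted p = 0.022, limma). Kept values existed in all samples of the first 3 days, with means of 0.64 ± 0.16 (SD, n = 3), 0.65 ± 0.36 (SD, n = 3) and 0.16 ± 0.0086 (SD, n = 3). On Day15 only replicate 2 was kept (0.31), above every kept Day11 value, and on Day25 only replicate 2 (-0.81). The late part of the DDM1 curve therefore rests on arrays without both marks. Arrays of 1 sample differed by a median of 0.17 and at most 0.44 for this spot.

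DMAP1, listed for this locus as a myb-like transcription factor family protein, is known in mammals as a partner of the maintenance methyltransferase DNMT1 and as a subunit of chromatin complexes. The kept log2 ratios were 0.82, 0.42 and 0.66 on Day0, 0.61, 0.63 and 0.81 on Day5, and 1.03, 0.68 and 0.53 on Day11. On Day15 they were 0.75 in replicate 2 and 0.32 in replicate 3, replicate 1 not being kept, and on Day25 0.065, -0.34 and 0.061. Values stayed in 1 range up to Day11, and all Day25 values lay below all others. The log2 ratio fell by 0.71 from Day0 to Day25 (SE 0.17, 1.63-fold, adjusted p = 0.0038, limma), and the time course was called (R-squared 0.74, adjusted p = 8.81e-04, limma).

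None of the DMAP1 steps between consecutive days passed. The differences were 0.048 and 0.063 (SE 0.17) up to Day11, -0.21 (SE 0.19) from Day11 to Day15, and -0.61 (SE 0.19, adjusted p = 0.063, limma) from Day15 to Day25. The last one passed in 4 of its 24 alternatives: 1 loess curve per array (-1.01, adjusted p = 0.011, limma), no between-array step (0.045), scaled log2 ratios (0.022) and the 30 arrays with an estimated technical correlation (0.042). Over all 24 the adjusted p ran from 0.011 to 0.37. The time course call was lost without replicate 2 of Day25, the lowest sample (R-squared 0.65), with the 30 arrays fitted with an estimated technical correlation (R-squared 0.68), and with a straight line in place of the curve (R-squared 0.52).

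VIM1 encodes a RING finger protein (ORTH2) that in *A. thaliana* binds methylated cytosines and is needed to keep them. Unfiltered log2 ratios were 0.56, 0.17 and 0.43 on Day0, -0.27, 0.031 and 0.058 on Day5 and -0.17, -0.54 and -0.083 on Day11. They were -0.21, -0.19 and -0.11 on Day15 and -0.017, 0.14 and -0.23 on Day25. Day0 lay above each of the other days without overlap, and the values of the 4 later days mixed. This was the smallest change of the 7 spots over the whole period, -0.42 on the log2 scale (SE 0.15, adjusted p = 0.032, limma, no filter).

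The VIM1 step from Day0 to Day5 was -0.45 (SE 0.15, adjusted p = 0.087, limma) and passed without replicate 2 of Day0 (-0.55, adjusted p = 0.045), and the later steps were -0.20, 0.093 and 0.14 (SE 0.15 each). The time course had an adjusted p of 0.0036 (limma) but an R-squared of 0.64, under the limit. It was 0.70 and called without replicate 1 of Day5. The call for Day0 to Day25 rested on few samples: its adjusted p was 0.11 without replicate 1 of Day0, 0.0833 without replicate 3 of Day0, 0.056 without replicate 1 of Day25 and 0.13 without replicate 3 of Day25 (limma), 0.094 with scaled log2 ratios, and 0.088 with kept values alone, required only on those 2 days.

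The glycosylase belongs, by name, to the enzymes that excise 5-methylcytosine, known in *A. thaliana* from DEMETER and ROS1. Its kept log2 ratios were -2.05, -2.51 and -1.89 on Day0, -1.01, -0.69 and -1.33 on Day5, and -0.14, 0.088 and 0.28 on Day11. On Day15 they were 0.64, 0.93 and -0.12 and on Day25 1.69, 1.48 and 1.38. The days followed one another without overlap except that Day15 replicate 3 fell among the Day11 values. Day means were -2.15 ± 0.32, -1.01 ± 0.32, 0.076 ± 0.21, 0.48 ± 0.54 and 1.52 ± 0.16 (SD, n = 3 each).

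The glycosylase was called in 3 of the 4 intervals. It rose by 1.14 on the log2 scale from Day0 to Day5 (2.21-fold, adjusted p = 0.0099, limma), by 1.08 from Day5 to Day11 (2.12-fold, adjusted p = 0.040) and by 1.03 from Day15 to Day25 (2.05-fold, adjusted p = 0.016), with an SE of 0.24 for each. The step from Day11 to Day15, 0.41, did not pass (adjusted p = 0.87). In that interval limma called 0 of 14513 spots, with 857 at an unadjusted p under 0.05, among them 0 of the 3 filtered spots. With no filter limma called 0 of 26496 spots there, with 1694 at an unadjusted p under 0.05, among them 1 of the 7. Over the whole period the change was 3.67 (SE 0.24, adjusted p = 6.79e-08), and the quadratic curve took up 0.95 of the variance (R-squared, adjusted p = 1.59e-08, limma). It was the only 1 of the 3 filtered spots called in these intervals. From Day0 to Day5, 2.94% of all spots rose and 4.76% fell (7.70% together). From Day5 to Day11, 0.889% rose and 0.689% fell (1.58%). From Day15 to Day25, 5.53% rose and 3.50% fell (9.03%). With no filter it was again the only 1 of 7 called. In that fit 3.46% of the 26496 spots rose and 4.97% fell (8.43%) in the first of these intervals, 1.82% rose and 1.41% fell (3.23%) in the second, and 6.38% rose and 4.35% fell (10.7%) in the last.

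Single steps of the glycosylase were close to the threshold. Without replicate 2 of Day5 the first step was 0.99 (adjusted p = 0.057, limma), and with scaled log2 ratios it was 0.73 (adjusted p = 0.11). The step from Day5 to Day11 lost its call without replicate 2 or 3 of Day5 (adjusted p = 0.061 and 0.25), replicate 1, 2 or 3 of Day11 (0.095, 0.13 and 0.11), replicate 3 of Day0 (0.051), replicate 1 of Day15 (0.051) or replicate 2 of Day25 (0.057), and with 1 loess curve per array (0.057). The last step lost it without replicate 3 of Day15 (0.73, adjusted p = 0.069) and without replicate 2 of Day25 (1.05, adjusted p = 0.054), and with scaled log2 ratios (0.74, adjusted p = 0.12). The change from Day0 to Day25 kept its call in all 25 alternatives run, between 3.16 and 3.80. On 1 array of Day0 replicate 2 the spot was not kept. That array differed from the other by 0.78, and with it the sample's value was -2.10.

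**Figure D2:**
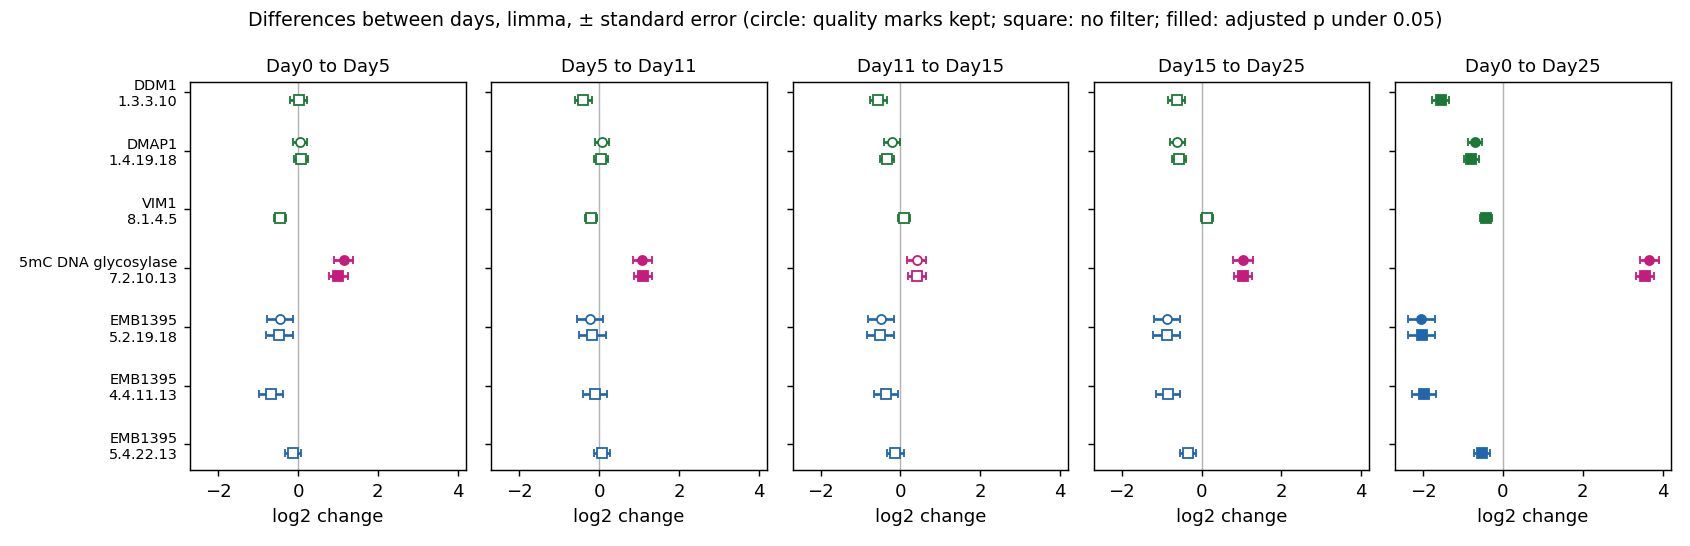
Log2 change of each spot (x axis) between consecutive days and from Day0 to Day25, with bars for the standard error of the limma fit. Circles are fits of kept values, squares are fits with no filter, and filled symbols have an adjusted p under 0.05. Only the glycosylase is filled in the consecutive intervals, with changes of 1.14, 1.08 and 1.03 in the fit of kept values.

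EMB1395 5.2.19.18 gave kept values in every sample. The log2 ratios were 1.64, 0.88 and 0.78 on Day0, 0.35, 1.07 and 0.52 on Day5, and 0.66, 0.27 and 0.31 on Day11. They were -0.57, 0.56 and -0.19 on Day15 and -0.27, -0.998 and -1.55 on Day25. Neighbouring days overlapped throughout, whereas Day0 and Day25 did not. From Day0 to Day25 the spot fell by 2.04 on the log2 scale (SE 0.33, 4.11-fold, adjusted p = 1.45e-04, limma), and its time course was called (R-squared 0.75, adjusted p = 9.35e-05).

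The steps of this spot all pointed down, at -0.46, -0.23, -0.48 and -0.87 (SE 0.33 each), and none passed. The last had an adjusted p of 0.11 (limma) and passed without replicate 1 of Day25 (-1.21, adjusted p = 0.030) and with the 30 arrays fitted with an estimated technical correlation (adjusted p = 0.016). The spread between samples of a day, an SD of 0.49 over the 5 days in the unfiltered values, was the widest of the 7 spots, while arrays of 1 sample differed by a median of 0.074.

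EMB1395 4.4.11.13 had unfiltered log2 ratios of 1.72, 0.73 and 0.98 on Day0, 0.40, 0.66 and 0.36 on Day5, and 0.56, 0.081 and 0.48 on Day11. On Day15 they were -0.30, 0.59 and -0.24 and on Day25 -0.21, -0.94 and -1.34. Day0 lay above Day5 without overlap, Days 5 to 15 overlapped, and Day25 lay below Day0. The Day0 to Day25 fall was 1.97 on the log2 scale (SE 0.30, 3.93-fold, adjusted p = 8.04e-05, limma). Kept values alone, required only on those 2 days, gave -1.98 (SE 0.41, adjusted p = 0.0022). Its steps, from -0.85 to -0.0985, did not pass, though the last did without replicate 1 of Day25 (-1.16, adjusted p = 0.022), and the time course was called (R-squared 0.74, adjusted p = 1.13e-04), though its R-squared was 0.69 without replicate 2 or replicate 3 of Day25. On Day11 the arrays of replicate 2 differed by 1.06, and the kept one gave -0.42.

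EMB1395 5.4.22.13 changed least of the 3. Unfiltered values were 0.85, 0.22 and 0.46 on Day0, 0.45, 0.41 and 0.27 on Day5, and 0.62, 0.34 and 0.39 on Day11. Those of Day15 were 0.062, 0.73 and 0.19, and those of Day25 0.36, -0.19 and -0.24. Replicate 1 of Day25 lay within the Day0 range. The difference of -0.53 (SE 0.20) had an adjusted p of 0.041 (limma, no filter), which was 0.26 with kept values alone on both days and 0.17 without replicate 1 of Day0. The call was also lost without replicate 3 of Day0, 2 of Day5, 2 or 3 of Day11, or 2 or 3 of Day25. The adjusted p was then from 0.0502 to 0.14 (limma). The time course was not called (R-squared 0.38, adjusted p = 0.056).

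In the unfiltered values the 3 EMB1395 spots shared their highest sample on 4 of the 5 days. Replicate 1 was the highest on Day0, Day11 and Day25 at all 3 spots, and replicate 2 was the highest on Day15 at all 3. On Day5 replicate 2 was the highest at 5.2.19.18 and 4.4.11.13 and replicate 1 at 5.4.22.13. Replicate 2 of Day15 was also the highest sample of its day for DDM1, DMAP1 and the glycosylase. These orders come from the same 15 samples and were not tested.

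The other roles were also set against the glycosylase within each sample. The glycosylase alone moved by 3.56 from Day0 to Day25 with no filter, so that each difference would shift by 3.56 if the other spot had not changed. The log2 ratio of the glycosylase minus that of EMB1395 5.2.19.18 averaged -3.13 ± 0.62 on Day0, -1.65 ± 0.28 on Day5, -0.39 ± 0.48 on Day11, 0.54 ± 0.55 on Day15 and 2.46 ± 0.48 on Day25 (SD, n = 3 each, no filter). Minus DMAP1, the difference went from -2.66 ± 0.19 on Day0 to 1.69 ± 0.27 on Day25. Minus DDM1 it went from -2.62 ± 0.16 to 2.49 ± 0.39, and minus VIM1 from -2.42 ± 0.20 to 1.57 ± 0.20. The shifts were 5.59 against EMB1395, 4.35 against DMAP1, 5.12 against DDM1 and 3.98 against VIM1. All 4 share the glycosylase value, so that they are not independent of each other, and what exceeds 3.56 is the other spot's own change given above. The size of each difference is set by the reference pool and is not a ratio of transcripts. Only its shift between days can be read.

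**Figure D3:**
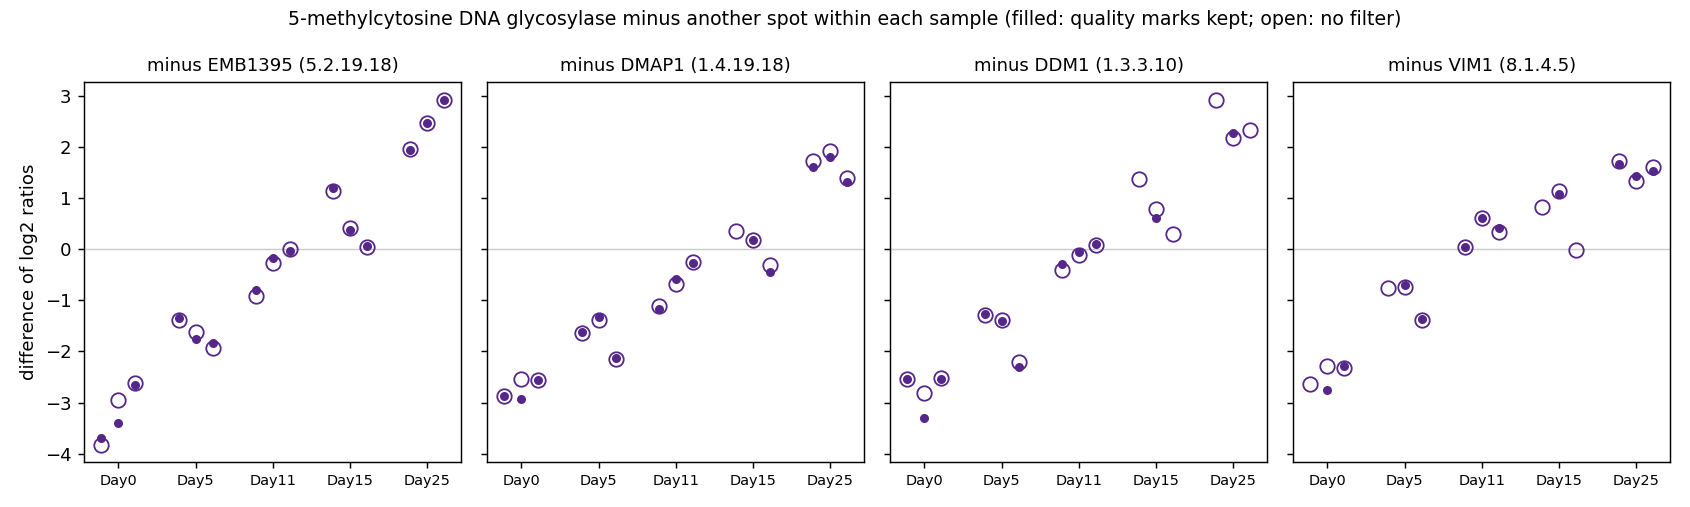
Difference of log2 ratios (y axis), glycosylase minus EMB1395 5.2.19.18, DMAP1, DDM1 or VIM1, within each of the 3 samples of each day (x axis), filled for values with both marks kept and open with no filter. For EMB1395 the samples pass from a mean of -3.13 on Day0 to 2.46 on Day25.

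EMB1395 5.2.19.18 minus DMAP1 moved less, from 0.47 ± 0.45 on Day0 to -0.77 ± 0.68 on Day25 (SD, n = 3 each; two-sided exact permutation p = 0.10, the smallest that 3 against 3 samples allow). This EMB1395 spot thus ended lower against DMAP1 than it began, with no overlap between those days. The other EMB1395 spots were not set against DMAP1 within samples. With no filter, DMAP1 fell by 0.79 on the log2 scale from Day0 to Day25, EMB1395 4.4.11.13 by 1.97 and 5.4.22.13 by only 0.53. The lower end against DMAP1 is therefore not a result for all EMB1395 spots.

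Further spots of the methyl cycle were taken by locus from the supplementary tables of the study. Some of these tables list spots because they changed, so the counts are not independent of change. The 13 spots covered methionine synthase, S-adenosylmethionine synthetase, adenosine kinase and a second S-adenosylhomocysteine hydrolase. From Day0 to Day25, 6 of them had a filtered test, of which 3 fell and 1 rose, with a median log2 change of -0.57, where 23.6% of all spots fell and 23.6% rose. With no filter 8 of 13 fell and 2 rose, with a median of -0.75, where 25.4% of all spots fell and 25.2% rose. The same shares stand behind the counts of the folate, DNA methylation and replication lists. No spot of this list passed in the first 3 intervals in either fit.

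Spots of the enzymes next to S-adenosylhomocysteine hydrolase in the cycle were among those that fell. Methionine synthase 2.2.13.4 (AT5G17920), which makes methionine from homocysteine, went from a day mean of 1.03 ± 0.60 on Day0 to -0.59 ± 0.49 on Day25 (SD, n = 3 each). It fell by 1.62 on the log2 scale (SE 0.31, adjusted p = 6.47e-04, limma). Adenosine kinase 5.1.18.1 (AT5G03300), which removes the adenosine that the hydrolase releases, went from 1.29 ± 0.81 to -0.86 ± 0.53 (SD, n = 3 each). It fell by 2.15 (SE 0.35, adjusted p = 1.65e-04). With no filter, the second adenosine kinase spot, 1.2.17.21, fell by 1.99 (SE 0.28, adjusted p = 4.02e-05, limma). The hydrolase of the second locus, 2.4.23.3 (AT3G23810), fell by 2.27 (SE 0.20, adjusted p = 5.23e-07), with Day0 values from 0.58 to 0.74 and Day25 values from -1.66 to -1.58. With no filter, 4 of the 5 methionine synthase spots fell, from -1.63 to -0.75, and 7.1.21.1 was at -0.29 (adjusted p = 0.084).

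S-adenosylmethionine synthetase, which makes the methyl donor itself, did not follow this pattern. Of its 5 spots, 8.2.6.7 (AT3G17390) rose by 1.05 with no filter (SE 0.14, adjusted p = 2.02e-05, limma), almost all of it from Day15 to Day25 (0.96, adjusted p = 9.46e-04). 5.2.7.19 rose by 0.60 in the fit of kept values (SE 0.21, adjusted p = 0.027). 8.4.10.24 (AT2G36880) had -0.21 with kept values (adjusted p = 0.54) and -0.59 with no filter (adjusted p = 0.039). Spots 2.1.14.1 and 8.1.22.19 were at -0.011 (SE 0.15) and -0.27 (SE 0.19) with no filter, and neither passed.

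The folate list, 6 spots of enzymes of folate metabolism, was divided. Which of them supply the methyl group of methionine was not tested. With no filter, both spots of methylenetetrahydrofolate reductase fell from Day0 to Day25, 4.2.13.12 (AT3G59970) by 1.98 on the log2 scale (SE 0.19, adjusted p = 1.50e-06, limma) and the other (AT2G44160), which fell by 0.87. Of 4 serine hydroxymethyltransferase spots 2 fell and 2 rose, with changes from -0.86 to 0.62. Among the 2 folate spots with a filtered test, 2.3.21.20 fell by 0.76 (adjusted p = 0.0056) and 2.2.10.4 was at 0.55 (adjusted p = 0.0504).

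**Figure D4:**
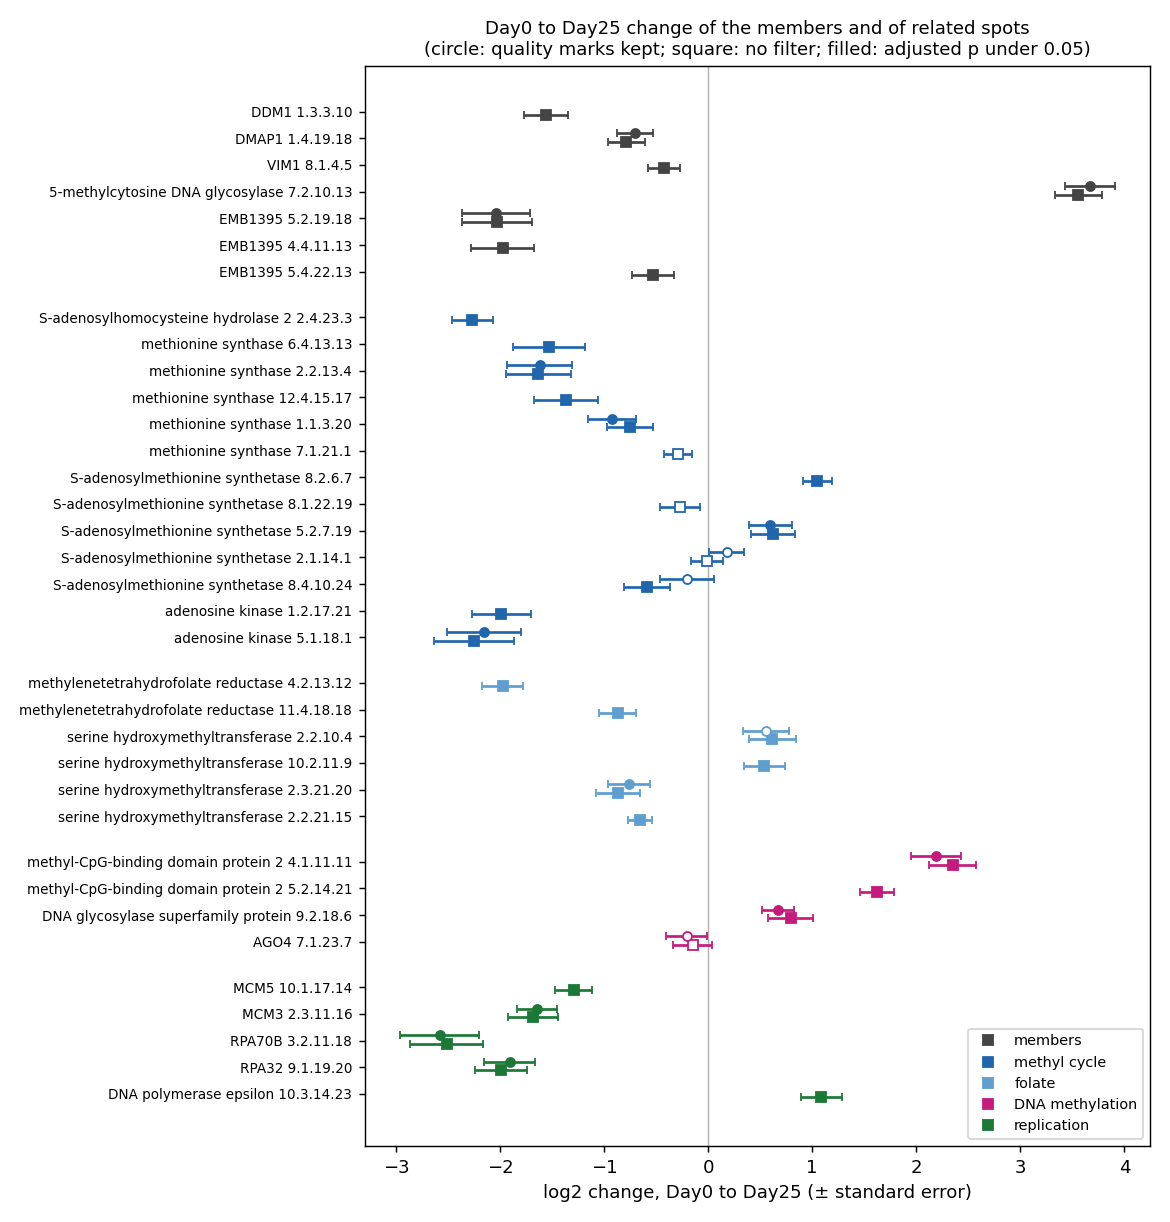
Log2 change from Day0 to Day25 (x axis, bars for the standard error of the limma fit) of the 7 spots and of the related spots, grouped by list. Circles are fits of kept values, squares fits with no filter, filled symbols an adjusted p under 0.05. Adenosine kinase 5.1.18.1 lies at -2.15 and EMB1395 5.2.19.18 at -2.04, while EMB1395 5.4.22.13 is at -0.53, methyl-CpG-binding domain protein 2 (4.1.11.11) at 2.19 and the glycosylase at 3.67.

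On the list of other spots set under DNA methylation, those that passed from Day0 to Day25 rose. Of these spots only those of methyl-CpG-binding domain protein 2 refer to methylation in their name. Methyl-CpG-binding domain protein 2 (AT5G35330) is named for its domain, and whether it binds methylated DNA was not tested. At spot 4.1.11.11 it had kept means of -1.02 ± 0.22 on Day0, -1.42 ± 0.47 on Day5, -1.25 ± 0.19 on Day11, -0.44 ± 0.30 on Day15 and 1.16 ± 0.39 on Day25 (SD, n = 3 each). It rose by 2.19 from Day0 to Day25 (SE 0.24, adjusted p = 4.24e-06, limma), of which 1.61 came after Day15 (adjusted p = 0.0010). Its other spot, 5.2.14.21, rose by 1.63 with no filter (SE 0.16, adjusted p = 1.63e-06). A DNA glycosylase superfamily protein (AT3G47830, 9.2.18.6) rose by 0.67 (SE 0.15, adjusted p = 0.0027). AGO4, which guides methylation by small RNAs in *A. thaliana*, was at -0.21 (SE 0.20, adjusted p = 0.41). Of these 4 spots 3 had a filtered test, of which 2 rose and 0 fell, where 23.6% of all spots rose and 23.6% fell. Methyltransferases were not analysed here.

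Replication spots give values beside DDM1 and VIM1, since methylation is renewed after replication. All 3 with a filtered test fell from Day0 to Day25: MCM3 fell by 1.64 (SE 0.19, adjusted p = 1.24e-05), RPA70B fell by 2.58 (SE 0.38, adjusted p = 5.74e-05) and RPA32 fell by 1.91 (SE 0.24, adjusted p = 2.49e-05; limma). All 3 also fell from Day15 to Day25, where 3.50% of all spots fell. MCM3 fell by 0.99 (adjusted p = 0.012), RPA70B fell by 1.44 and RPA32 fell by 1.02. The calls of RPA70B and RPA32 were lost with scaled log2 ratios (adjusted p = 0.21 and 0.19), without replicate 2 of Day15 (0.12 and 0.078), replicate 3 of Day15 (0.081 and 0.067) or replicate 2 of Day25 (0.11 and 0.092), and for RPA70B also without replicate 3 of Day25 (0.069). With no filter MCM5 fell by 1.29 and a DNA polymerase epsilon spot rose by 1.09. With no filter the change was -0.42 for VIM1 and -1.56 for DDM1, beside a median of -1.68 in these 5 spots. The part of the replication spots' change in the DDM1 and VIM1 values was not tested.

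Likeness was measured as Pearson correlation over the samples shared, for spots with a name in the tables and kept values in at least 12 samples. The tables list most named spots because they changed. For the glycosylase the nearest of 1220 named spots were an HCP-like protein with a MYND-type zinc finger (1.1.14.11, r = 0.989), the biotin carboxyl carrier protein of acetyl-CoA carboxylase (1.1.19.23, r = 0.988) and 3-ketoacyl-acyl carrier protein synthase III (1.4.19.22, r = 0.985), each over 14 samples. EMB1395 5.2.19.18 lay nearest to an aspartyl protease family protein (2.2.21.16, r = 0.946, 13 samples), dihydrodipicolinate synthase (4.2.10.10, r = 0.934, 13 samples) and an ATP synthase alpha/beta family protein (1.1.21.3, r = 0.933, 14 samples). The same ATP synthase spot was among the 3 nearest to DMAP1 (r = 0.899, 14 samples) and the nearest to EMB1395 5.4.22.13 (r = 0.726, 12 samples). DMAP1 also lay near a bidirectional amino acid transporter (1.2.4.23, r = 0.922) and a small nuclear ribonucleoprotein associated protein (6.3.14.18, r = 0.874), both over 13 samples. The next spots to EMB1395 5.4.22.13 were a protein kinase (12.1.2.9, r = 0.570) and a fructose-bisphosphate aldolase (2.2.20.1, r = 0.555), both over 12 samples. These values describe the 15 samples, which share a reference pool, and carry no test.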

How the data were processed

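The deposited intensities are spot and background signals of both channels, which the authors obtained with ImaGene, with quality marks as further columns. The authors also deposited log2 ratios made with print-tip loess and cyclic loess. Using limma 3.58.1 (R 4.3.3, with statmod 1.5.0), ratios on a log2 scale were computed from the intensities without background correction, normalized by print-tip loess (48 tips, span 0.3, 4 iterations) and cyclic loess over both channels (3 iterations), and averaged over technical replicates. Correlation with the authors' log2 ratios was 0.993 to 0.999 per array, a comparison that does not cover DDM1 and VIM1. The number of samples, 3 a day, limits the precision. Day means were compared in 1 limma fit of 15 samples, and a limma F test stood in for maSigPro, the study's time course method. The fits were tested on simulated data. Plots used matplotlib 3.10.9. Named were the 7 spots, list spots past the test with a fold of at least 2 and the 3 nearest named spots. List spots outside this rule were added to complete an enzyme after their values were seen. Members and lists were chosen with earlier results of these data known. The study's tables, held in part, served for names and for the choice of list spots. They also set which spots were compared for likeness. Alternatives are given at the end. Sequences of the spots were not used here.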

Additional observations from a re-analysis of the deposited data

How the results depend on the processing

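The number of the 7 spots called was compared under other settings. From Day0 to Day25 it was 3 in the fit of kept values and 7 with no filter on marks, where 7 and not 3 spots were tested. On the time course it was 3 and, with no filter, 5. From Day0 to Day5 it was 1, and 0 with scaled log2 ratios. From Day5 to Day11 it was 1, and 0 with 1 loess curve per array. From Day15 to Day25 it was 1, and 2 with 1 loess curve per array or with no between-array step, and 3 with 30 arrays and an estimated technical correlation. Leaving out each sample gave 0 to 1, 0 to 1 and 0 to 2 calls in these intervals. The causes were not tested.

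The replicate numbers do not pair samples across days: deviations of same-numbered samples had correlations from -0.37 to 0.48 over 6331 spots. With a replicate block the number called was 3 from Day0 to Day25, 3 on the time course, 1, 1, 0 and 1 in the consecutive intervals, and the last step of DDM1 passed (adjusted p = 0.033, limma).

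Directions turned only in steps that passed no test. With 1 loess curve per array DMAP1 was at -0.056 from Day5 to Day11 and 0.056 from Day11 to Day15. With scaled log2 ratios EMB1395 5.4.22.13 was at 0.089 from Day0 to Day5. With kept values required on both days only, the step from Day11 to Day15 was 3.74e-04 for EMB1395 4.4.11.13 and 0.070 for 5.4.22.13. Leaving out each sample, DMAP1 ranged from -0.061 to 0.14, -0.078 to 0.17 and -0.43 to 0.0054 in the first 3 steps, DDM1 from -0.12 to 0.19 in the first (-0.053 without replicate 1 of Day0 and -0.024 without replicate 2 of Day5) and VIM1 from -0.043 to 0.18 from Day11 to Day15. EMB1395 4.4.11.13 ranged from -0.19 to 0.048 from Day5 to Day11, and 5.4.22.13 from -0.28 to 0.037, -0.0095 to 0.13 and -0.33 to 0.0088 in the first 3 steps. The alternatives on values with no filter, those of the list spots and the rule on both days were chosen after seeing the data.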
